A study of Mus musculus with 3 samples.

Results

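Haem breakdown and iron recycling was followed through 10 genes, chosen by name from the pathway with earlier results of these data known. They were Slc48a1, Hmox1, Blvra, Blvrb, Fth1, Ftl1, Slc40a1, Slc11a1, Slc11a2 and Trf. All 10 were present among 16072 named genes in an RNA-seq table of mouse bone marrow (BM) myeloid cells, and all 10 passed a filter on low values, which kept 9130 genes averaging 1 FPKM or more over the 3 libraries (the number of fragments scaled for transcript length and sequencing depth). The sample labels call the cells Ly6G+, and the study also calls them Gr-1+. The mice were C57BL/6 animals carrying B16.F10 melanoma cells, given under the skin 1 week before an intramuscular adeno-associated virus vector. This vector carried the cytokine IL-27 in the AAV-IL27 group and was the control vector in the AAV-ctrl group, so both groups shared the strain, the tumour and a vector injection. Mice were 6 to 10 weeks old, the transgene was driven by the broadly active CAG promoter, and cells were collected 3 weeks after the vector. Libraries analysed here were AAV-ctrl 1, AAV-ctrl 2 and AAV-IL27 2. With 1 AAV-IL27 library there is no replicate error on that side, no test was run, and every difference below describes these libraries. The labels do not say whether a library came from 1 mouse or from several.

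Haem taken up with senescent or damaged red cells is moved out of the phagolysosome by the transporter Slc48a1, then opened by haem oxygenase 1 (Hmox1) into biliverdin, carbon monoxide and ferrous iron. Blvra turns this biliverdin into bilirubin, the related reductase Blvrb acts on flavins and other biliverdin isomers, ferritin (Fth1 heavy chain, Ftl1 light chain) stores the iron, and ferroportin (Slc40a1) exports it to plasma transferrin (Trf). Slc11a1 and Slc11a2 are divalent metal transporters of the phagosome and endosome. Macrophages of BM, spleen and liver carry most of this traffic, and macrophages at the centre of erythroblastic islands also engulf the nuclei expelled by maturing red cells.

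Iron also acts on several of these transcripts directly. Iron regulatory proteins bind a hairpin, the iron-responsive element, which blocks translation when it lies in the 5′ UTR and protects the transcript when it lies in the 3′ UTR. The elements were searched in the GENCODE M21 transcripts of the mouse genome build GRCm38 (the counterpart of mm10, the build named in the submitters' processing notes). The rule asked for a loop CAGTG followed by A, C or T, 5 paired bases above a bulged C, and at least 3 pairs below it. Among the 10 genes it found 1 element each in Fth1, Ftl1 and Slc40a1, all in the 5′ UTR, within 1 exon. Those 3 are shown because they mark the storage and export genes. The first of the 4 elements that the rule found in the 3′ UTR of the transferrin receptor gene Tfrc is shown for comparison. Capitals mark the loop. The Fth1 element lies at chr19:9982733-9982760 (plus strand), the Ftl1 element at chr7:45459779-45459806 (minus strand), the Slc40a1 element at chr1:45925465-45925492 (minus strand) and the Tfrc element at chr16:32631220-32631247 (plus strand).
Fth1: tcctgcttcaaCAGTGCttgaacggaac
Ftl1: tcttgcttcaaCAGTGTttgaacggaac
Slc40a1: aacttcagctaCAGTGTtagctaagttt
Tfrc: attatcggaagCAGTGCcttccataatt
For the other 7 genes no match says only that this pattern was not found in the annotated UTRs.

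Hmox1 and the biliverdin reductase genes Blvra and Blvrb were lower in the AAV-IL27 library, while the ferritin chains and Slc11a1 stayed near their AAV-ctrl levels. A gene was called lower or higher when its log2(FPKM + 1) in AAV-IL27 was 1 unit or more from each AAV-ctrl library, in the same direction. By this rule 3 of the 10 genes were lower (Hmox1, Blvra and Blvrb), beside 212 of 9130 genes in the whole table (2.32%), and 0 of the 10 were higher, beside 28 of 9130 (0.307%). At any size of difference, 7 of the 10 lay below both AAV-ctrl libraries, where 41.9% of all tested genes did, 2 lay above both, where 38.9% did, and 1 lay between them. The median difference of the 10 genes was -0.58 on the log2 scale, against -0.01 over all tested genes. For scale, the AAV-ctrl libraries differed from each other by a median of 0.0869 log2 units over all tested genes, with a 99th percentile of 0.571. The difference of the 10 genes exceeded that percentile in size for 5 of them, Hmox1, Blvra, Blvrb, Slc11a2 and Trf, as it did for 823 of 9130 tested genes (9.01%). Slc11a2 passed the filter only through its AAV-ctrl levels, so its place in these counts and in the median, which was -0.40 without it, is no support for them.

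**Figure D1:**
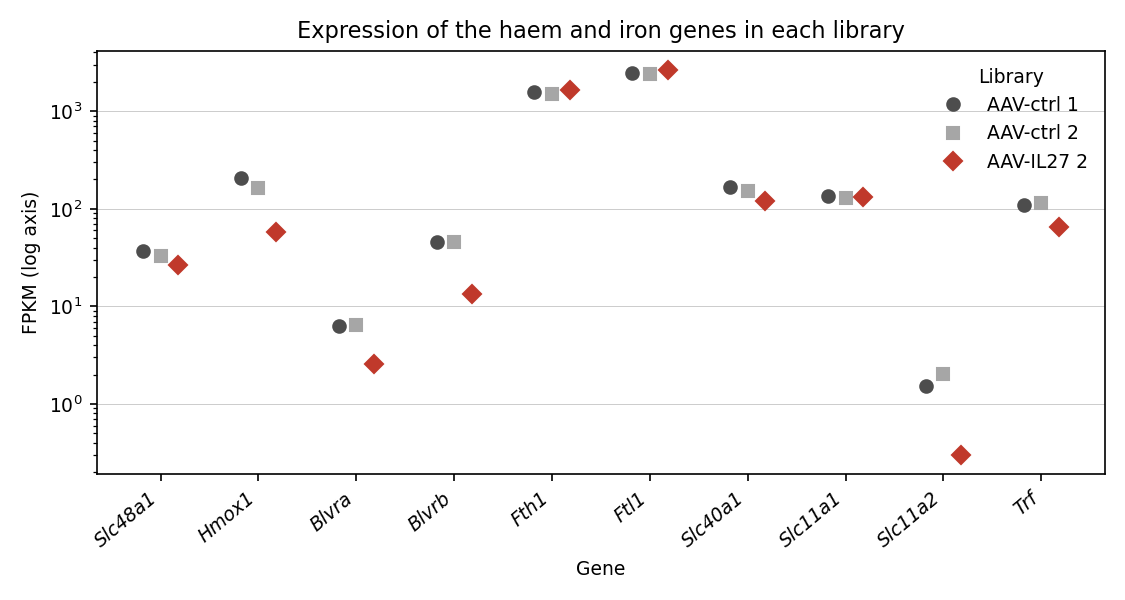
FPKM (log axis) of the 10 haem and iron genes in AAV-ctrl 1 (circles), AAV-ctrl 2 (squares) and AAV-IL27 2 (diamonds), ordered along the pathway, with 1 point per library. The AAV-IL27 point of Hmox1 (57.86) lies below both AAV-ctrl points (207.37 and 164.46), and the points of Fth1, Ftl1 and Slc11a1 nearly coincide.

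The libraries were of like depth and carried a strong neutrophil profile. The spacing of small FPKM values put the depth at about 19200000 fragments for AAV-ctrl 1, 19600000 for AAV-ctrl 2 and 19400000 for AAV-IL27. Of 12 neutrophil markers, which include Ly6g and the calcium-binding protein genes S100a8 and S100a9, 0 were called in either direction, and their summed FPKM was 187230, 183717 and 177019. Across all tested genes, 2.32% were called lower and 0.307% higher. Markers of other BM cells were present too and differed between the groups. Of the 13 BM macrophage markers that reached a mean FPKM of 1, out of 14 listed, 12 were lower, and the sum over the list was 648 and 678 in AAV-ctrl and 180 in AAV-IL27, or 27.2% of the AAV-ctrl mean. Of 12 erythroid markers 12 were lower, with sums of 20515 and 13855 in AAV-ctrl and 2357 in AAV-IL27 (13.7%). None of the 14 macrophage or 12 erythroid markers was listed at 0 in AAV-IL27, but 1 of the lower macrophage markers and 3 of the lower erythroid markers were under 1 FPKM there and passed the filter only through AAV-ctrl. The macrophage and erythroid marker levels moved with those of Hmox1, Blvra and Blvrb, and their part in the results below was not tested. In bulk RNA a smaller number of cells of a type and less RNA per cell cannot be told apart.

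Uptake of haem into the cytosol was represented by Slc48a1, the haem exporter of the phagolysosome. Its FPKM was 36.67 in AAV-ctrl 1, 33.17 in AAV-ctrl 2 and 26.3 in AAV-IL27. The AAV-IL27 library was the lowest, at 75.3% of the AAV-ctrl mean of 34.9 ± 2.47 (SD, n = 2). The difference of -0.39 was larger than the -0.14 between the AAV-ctrl libraries and did not reach 1 log2 unit. The gene lies at chr15:97778520-97792692 on the plus strand and shares exonic bases with Hdac7 on the other strand, and whether the authors' counting used strand is not given in the sources used here, so some of its fragments could belong to that neighbour. Its transcript also resembles that of Gm7814, at 90.2% identity over 429 bases.

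Hmox1, the rate-limiting enzyme of haem degradation and a gene induced by haem itself, was the third most abundant of the 10 genes in both AAV-ctrl libraries. It measured 207.37 FPKM in AAV-ctrl 1, 164.46 in AAV-ctrl 2 and 57.86 in AAV-IL27. The groups did not overlap, and AAV-IL27 stood at 31.1% of the AAV-ctrl mean of 186 ± 30.3 (SD, n = 2). On the log2 scale it differed by -1.82 from AAV-ctrl 1 and by -1.49 from AAV-ctrl 2, while the AAV-ctrl libraries differed by -0.33. Ordered by the difference from the nearer AAV-ctrl library, lowest first, Hmox1 was at rank 91 of 9130 genes. Among the 10 genes its level went from rank 3 in both AAV-ctrl libraries to rank 6 in AAV-IL27.

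Both biliverdin reductases were lower as well. Blvrb is abundant in red cells. Its FPKM was 45.32 and 46.13 in the AAV-ctrl libraries and 13.37 in AAV-IL27. That was 29.2% of the AAV-ctrl mean of 45.7 ± 0.573 (SD, n = 2), and the difference was -1.70, at rank 66 of 9130. With pseudocounts of 0.1 and 0.01 its difference was -1.77 under both, and that of Slc11a2 was -2.22 and -2.52. Blvra, which reduces the biliverdin that Hmox1 makes, had 6.37 and 6.4 FPKM in AAV-ctrl and 2.55 in AAV-IL27. Its AAV-IL27 value was 39.9% of the AAV-ctrl mean of 6.38 ± 0.0212 (SD, n = 2), and it lay just past the threshold, at -1.05 and -1.06 against the AAV-ctrl libraries. The Blvra difference was -1.29 and -1.32 with pseudocounts of 0.1 and 0.01. After rescaling to equal FPKM totals it was -1.03, and after rescaling by median ratios -1.01. By estimate this gene rested on 133 and 135 fragments in AAV-ctrl and 53 in AAV-IL27. Exact 95% Poisson intervals, which cover counting error only, were 111.4 to 157.6, 113.2 to 159.8 and 39.7 to 69.3 fragments. The excess of Blvrb over Blvra was 7.11-fold and 7.21-fold in AAV-ctrl and 5.24-fold in AAV-IL27.

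**Figure D2:**
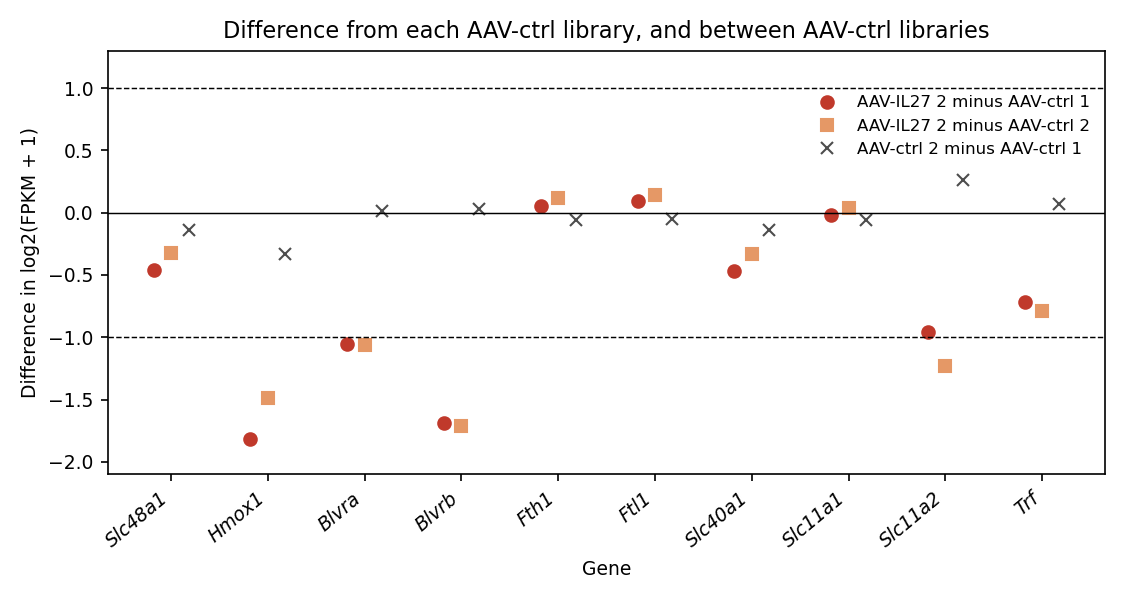
Difference in log2(FPKM + 1) of AAV-IL27 2 from AAV-ctrl 1 (circles) and from AAV-ctrl 2 (squares), and of AAV-ctrl 2 from AAV-ctrl 1 (crosses), for each of the 10 genes. Dashed lines mark 1 log2 unit in either direction. Hmox1, Blvra and Blvrb have both points below the lower line, and Slc11a2 has 1 point on each side of it (-0.96 and -1.23).

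The ferritin chains were the most abundant of the 10 genes and were not lower. Fth1, the chain with ferroxidase activity, had 1571.47 and 1502.66 FPKM in AAV-ctrl and 1630.75 in AAV-IL27. Ftl1, the chain that favours formation of the mineral core, had 2475.15 and 2397.5 FPKM in AAV-ctrl and 2643.28 in AAV-IL27. Both AAV-IL27 values lay above both AAV-ctrl values, by small amounts: 106% of the mean of 1537 ± 48.7 for Fth1 and 108% of the mean of 2436 ± 54.9 for Ftl1 (SD, n = 2 each). The log2 differences were 0.09 and 0.12, beside -0.06 and -0.05 between the AAV-ctrl libraries. The ratio of Fth1 to Ftl1 was 0.635 and 0.627 in AAV-ctrl and 0.617 in AAV-IL27. The Ftl1 values are uncertain, since transcripts of 9 other annotated genes matched it at 90% identity or more over at least 200 bases, among them the pseudogene Ftl1-ps1 at 99.6% over 910 bases. For Fth1 the same search found 1 gene, Gm6977. None of these 10 look-alikes is listed in the table under its symbol, so fragments of the copies may have been counted to the ferritin genes.

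Slc40a1, the only known cellular iron exporter in mammals, was lower by a smaller amount than Hmox1. It had 167.99 FPKM in AAV-ctrl 1, 152.26 in AAV-ctrl 2 and 120.91 in AAV-IL27. The AAV-IL27 library was the lowest, at 75.5% of the AAV-ctrl mean of 160 ± 11.1 (SD, n = 2), and the difference of -0.40 stayed short of 1 log2 unit. Levels of Hmox1 and Slc40a1 were close in AAV-ctrl, where their ranges overlapped and their ratio was 1.23 and 1.08. In AAV-IL27 the ratio, which was not among those planned, was 0.479. In the same ordering of all tested genes the rank of Slc40a1 was 1022 of 9130.

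The related metal transporters Slc11a1 and Slc11a2 stood far apart in level, and the scarcer one was the lower in AAV-IL27. Slc11a1, which pumps iron and manganese out of the phagosome of neutrophils and macrophages, had 133.73 and 128.02 FPKM in AAV-ctrl and 131.52 in AAV-IL27. Its AAV-IL27 value lay between those of AAV-ctrl, and the difference was 0.01. A transcript of Gm4829, not listed in the table under that symbol, matches it at 93.9% identity over 588 bases, so its fragments may be counted here. Slc11a2, which carries iron out of the endosome after transferrin uptake, was the least abundant of the 10 genes, with 1.53 and 2.04 FPKM in AAV-ctrl and 0.3 in AAV-IL27. The AAV-IL27 value was the lowest, at 16.8% of the AAV-ctrl mean of 1.79 ± 0.361 (SD, n = 2). On the log2(FPKM + 1) scale, which understates the change of low genes, it was -0.96 from AAV-ctrl 1 and -1.23 from AAV-ctrl 2, and so was just outside the call. With a pseudocount of 0.1, or without AAV-ctrl 1, Slc11a2 was called lower, and the count of lower genes became 4, where the share of all tested genes called lower was 4.34% and 3.22%. The table value does not say which of the annotated Slc11a2 transcripts was measured, so its estimated fragments were 87 to 128 in AAV-ctrl 1, 118 to 173 in AAV-ctrl 2 and 17 to 25 in AAV-IL27, depending on the transcript length used. Its exons overlap Gm5475 on the other strand.

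Trf, which encodes the plasma iron carrier transferrin, was intermediate. It had 108.98 FPKM in AAV-ctrl 1, 114.65 in AAV-ctrl 2 and 65.81 in AAV-IL27. The AAV-IL27 value lay below both, at 58.9% of the AAV-ctrl mean of 112 ± 4.01 (SD, n = 2), with a difference of -0.76 beside 0.07 between the AAV-ctrl libraries. The call rule was not met, at -0.72 and -0.79 against the AAV-ctrl libraries. Its transcript shares 1517 identical bases with that of Gm20425, annotated on the same strand, so fragments of this gene cannot be told apart from those of Trf.

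The order of levels was the same in both AAV-ctrl libraries: Ftl1, Fth1, Hmox1, Slc40a1, Slc11a1, Trf, Blvrb, Slc48a1, Blvra and Slc11a2. Only the neighbours Hmox1 and Slc40a1 had overlapping ranges across the AAV-ctrl libraries, so their order there is not settled. In AAV-IL27 the order was Ftl1, Fth1, Slc11a1, Slc40a1, Trf, Hmox1, Slc48a1, Blvrb, Blvra and Slc11a2. Slc11a1 moved up to rank 3, and Blvrb moved below Slc48a1.

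**Figure D3:**
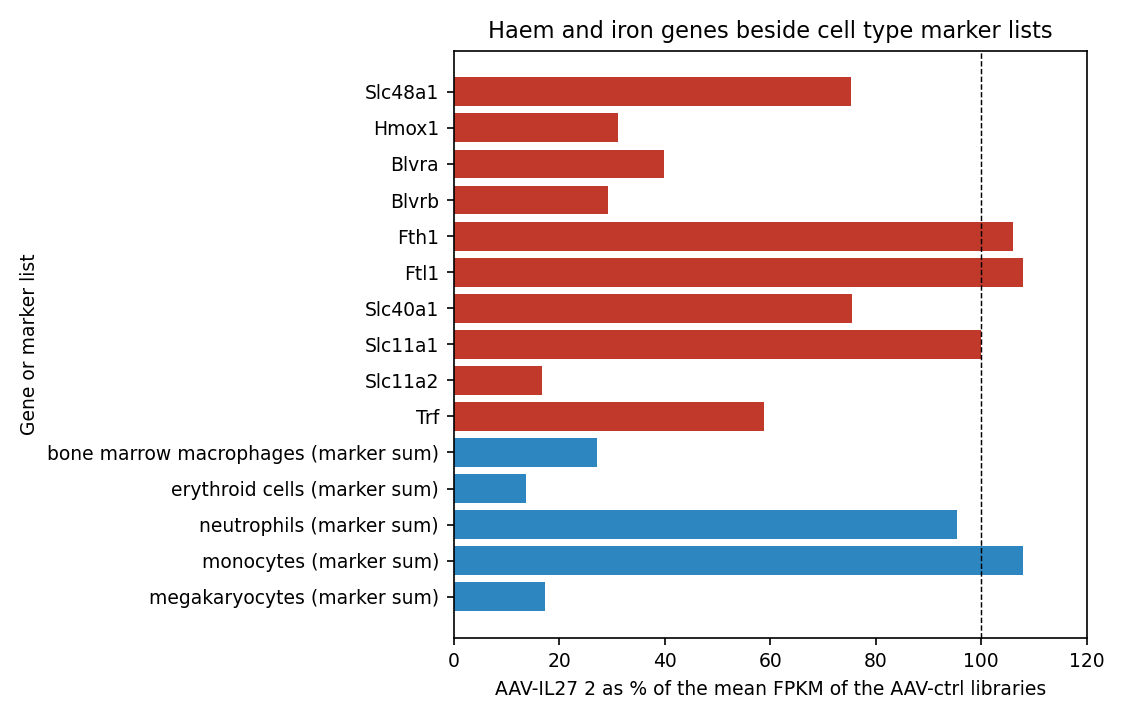
Level in AAV-IL27 2 as a percentage of the mean FPKM of both AAV-ctrl libraries, for each of the 10 genes (red bars) and for the summed FPKM of 5 cell type marker lists (blue bars). The dashed line marks 100%. Slc11a2, which passed the filter only through AAV-ctrl, was at 16.8%, Blvrb at 29.2%, Hmox1 at 31.1% and Blvra at 39.9%. Trf was at 58.9%, Slc48a1 at 75.3%, Slc40a1 at 75.5%, and Fth1, Ftl1 and Slc11a1 at 100% to 108%. The marker sums were at 13.7% (erythroid), 17.4% (megakaryocyte), 27.2% (macrophage), 95.4% (neutrophils) and 108% (monocytes).

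The cell type lists give the scale of the other BM signal beside these values. C1qa, a complement gene of tissue macrophages, had 137.53 and 145.73 FPKM in AAV-ctrl and 39.4 in AAV-IL27. Vcam1, the adhesion molecule of erythroblastic island macrophages, had 87.83 and 86.73 FPKM in AAV-ctrl and 16.02 in AAV-IL27. Adgre1, which encodes the F4/80 antigen, was the macrophage marker above the filter that was not called, with 26.41 and 24.7 FPKM in AAV-ctrl and 21.27 in AAV-IL27. Among erythroid markers, the globin gene Hba-a1 had 8135.7 and 5547 FPKM in AAV-ctrl and 957.72 in AAV-IL27. Of 5 megakaryocyte markers 3 were lower (Pf4, Itga2b and Ppbp), beside 2.32% of all tested genes. The 5 markers summed to 51.9 and 58 FPKM in AAV-ctrl and 9.55 in AAV-IL27. Of 5 monocyte markers 0 were called, and their sums were 1106, 1166 and 1228, dominated by Ly6c2.

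The wider iron and haem pathway was read from 8 lists, also chosen with earlier results of these data known, so the shares below are description only. The lists held 52 genes of the table, of which 38 passed the filter. Of these 38, 7 were lower by the call rule (beside 2.32% of all tested genes) and 0 were higher (beside 0.307%), and their median difference was -0.20 on the log2 scale, against -0.01 over all tested genes. The 7 were Tfrc, Steap3, Steap4, Abcb10, Cd163, Lrp1 and Spic. Tfrc also stands among the erythroid markers, and Cd163 and Spic also stand among the macrophage markers, so these genes count under both.

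Iron uptake and reduction had 3 genes above the filter, out of 8 in the table. All 3 were lower, beside 2.32% of all tested genes. Tfrc, the transferrin receptor whose 3′ UTR carries the element shown above, had 9.32 and 8.12 FPKM in AAV-ctrl and 1.86 in AAV-IL27. Steap3, the endosomal ferric reductase of the transferrin cycle, had 2.04 and 2.76 FPKM in AAV-ctrl and 0.5 in AAV-IL27, and passed the filter only through AAV-ctrl, so its place in this count and among the 7 is no support for them. Steap4, another metalloreductase, had 21.46 and 12.23 FPKM in AAV-ctrl and 1.78 in AAV-IL27. In each case AAV-IL27 was the lowest library, and for Steap4 the AAV-ctrl libraries themselves stood well apart. Tfrc and Steap3 act in the same transferrin cycle as Slc11a2, described above.

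Scavenging of haem and haemoglobin had 2 lower genes among 6 above the filter, beside 2.32% of all tested genes. Cd163, the macrophage receptor for haptoglobin-bound haemoglobin, had 18.69 and 18.02 FPKM in AAV-ctrl and 2.07 in AAV-IL27, a difference of -2.66. Lrp1, a receptor for haemopexin-bound haem, had 5.7 and 6.77 FPKM in AAV-ctrl and 1.89 in AAV-IL27. The haemoglobin-binding protein gene Hp, also made by granulocytes, was not called, with 1588.68 and 1630.64 FPKM in AAV-ctrl and 1181.67 in AAV-IL27. Hmox2, the constitutive haem oxygenase, had 44.57 and 45.3 FPKM in AAV-ctrl and 42.34 in AAV-IL27, a difference of -0.08 beside -1.66 for Hmox1.

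Of 6 haem and oxidative stress regulators above the filter, 1 was lower, beside 2.32% of all tested genes. Spic, the haem-induced transcription factor of red pulp and BM macrophages, had 17.38 and 15.2 FPKM in AAV-ctrl and 4.13 in AAV-IL27. Bach1, the haem-sensing repressor of Hmox1, had 34.35 and 29.72 FPKM in AAV-ctrl and 34.47 in AAV-IL27. Nfe2l2, which encodes the activator NRF2, had 115 and 108.1 FPKM in AAV-ctrl and 136.19 in AAV-IL27, a difference of 0.29. None of the 7 NRF2 and BACH1 target genes above the filter was called in either direction, with a median difference of -0.27. The most abundant of them, G6pdx of the pentose phosphate pathway, had 378.7 and 359.89 FPKM in AAV-ctrl and 306.47 in AAV-IL27. Gclm, a subunit of glutathione synthesis, had 28.62 and 26.66 FPKM and then 16.82. Slc7a11 lay above both AAV-ctrl libraries, with 7.48 and 6.28 FPKM there and 8.96 in AAV-IL27. Of the 7 target genes, 5 lay below both.

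Mitochondrial iron genes gave 1 lower gene of 7, beside 2.32% of all tested genes. Abcb10, a mitochondrial transporter needed for haem synthesis in red cell precursors, had 4.8 and 4.71 FPKM in AAV-ctrl and 1.74 in AAV-IL27. Iscu, the most abundant of the 7, had 82.66 and 75.67 FPKM in AAV-ctrl and 95.28 in AAV-IL27, above both. Slc25a37, the mitochondrial iron importer, was at 80.2% of its AAV-ctrl mean, and neither gene was called. Of the 7 genes, 4 lay below both AAV-ctrl libraries. Storage turnover and chaperone genes had 0 of 4 called in either direction. Among them Ncoa4, the cargo receptor that delivers ferritin for breakdown, had 113.36 and 116.86 FPKM in AAV-ctrl and 104.15 in AAV-IL27, and Fbxl5, the iron-sensing ubiquitin ligase adaptor, had 141.1 and 119.42 FPKM and then 98.75. The chaperone genes Pcbp1 and Pcbp2 were at 107% and 104% of their AAV-ctrl means. Of 3 iron regulatory and hepcidin axis genes above the filter 0 were called. Ireb2, an iron regulatory protein that binds the elements shown above, had 16.42 and 15.31 FPKM in AAV-ctrl and 14.81 in AAV-IL27. Neutrophil iron-binding proteins, encoded by Lcn2 (siderophore capture) and Ltf (lactoferrin), were at 88.4% and 86.7% of their AAV-ctrl means, and neither was called.

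**Figure D4:**
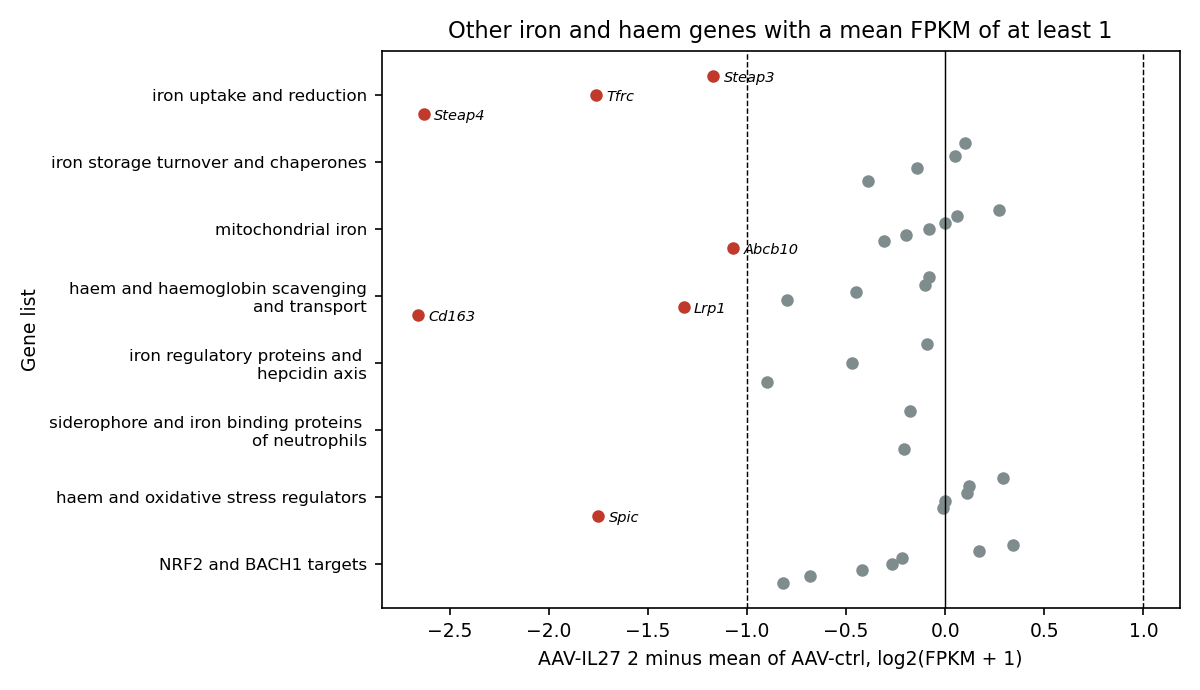
Difference in log2(FPKM + 1) between AAV-IL27 2 and the mean of the AAV-ctrl libraries (horizontal axis) for the 38 other iron and haem genes that passed the filter, by gene list. Red points with names mark the 7 genes at least 1 log2 unit below both AAV-ctrl libraries, and grey points the others. Dashed lines mark 1 log2 unit in either direction, and the highest point lies at 0.34.

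The 5 genes with differences between libraries nearest to those of Hmox1 were found by the Euclidean distance of log2(FPKM + 1), centred on each gene, over 3 libraries. They were Tmod1 (distance 0.0267), Tfdp2 (0.0797), Hbq1b (0.0909), Snora81 (0.106) and Spic (0.131). Tmod1 encodes tropomodulin of the red cell skeleton and had 3.97 and 3.01 FPKM in AAV-ctrl and 0.39 in AAV-IL27. Hbq1b is a globin gene and had 4.08 and 3.24 FPKM and then 0.38. Tmod1, Tfdp2, Hbq1b and Snora81 were under 1 FPKM in AAV-IL27 and passed the filter only through AAV-ctrl, so their nearness to Hmox1 is no support. Adding 1 to FPKM shrinks the differences of such low genes, and the distance does not compare levels. With 3 libraries and low FPKM values in 4 of these genes, the distance is a description only.

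Promoter windows from RefSeq, each 300 bases long and reaching 50 bases past a start site in GRCm38.p6, were available for Blvra, Blvrb, Fth1, Ftl1 and Slc11a1, 7 windows in all. They were searched on both strands for TGACNNNGC and TGAGNNNGC, forms of the core bound by NRF2 or BACH1 with a small MAF protein, and for TTCNNNGAA, the core bound by STAT factors, through which the IL-27 receptor signals. TGACNNNGC was found in 1 of the 7 windows and in 12.4% of 32851 windows of all genes, TGAGNNNGC in 2 of 7 and in 17.6%, and TTCNNNGAA in 0 of 7 and in 8.3%. The 3 windows with a match are shown from base -100 to base -21 of the start site, and they belong to Blvra, Blvrb (1 of its 2 windows) and Slc11a1. Capitals mark the match, which lies on the minus strand for Blvra and Blvrb and on the plus strand for Slc11a1. The stretches are chr2:127070557-127070636 for Blvra, chr7:27447878-27447957 for Blvrb and chr1:74375103-74375182 for Slc11a1, all on the plus strand.
Blvra: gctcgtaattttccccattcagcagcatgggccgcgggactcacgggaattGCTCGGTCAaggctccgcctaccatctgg
Blvrb: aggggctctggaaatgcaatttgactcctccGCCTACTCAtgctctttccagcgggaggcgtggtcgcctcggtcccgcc
Slc11a1: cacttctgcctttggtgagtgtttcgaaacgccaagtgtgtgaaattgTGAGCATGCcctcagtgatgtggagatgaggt
The match is to TGACNNNGC in Blvra and to TGAGNNNGC in Blvrb and Slc11a1, and it is a description of letters only.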

How the data were processed

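The authors enriched mRNA with oligo-dT, made strand-marked libraries and deposited FPKM values with genome build mm10 named in the submitters' processing notes. The aligner and the counting tool are not given in the sources used here. The table has 16073 rows, and 1 row without a symbol was left out. No listed sample corresponds to 1 further column of per-sample values, which stayed out of every step. Differences were taken on log2(FPKM + 1), as AAV-IL27 minus the AAV-ctrl mean. Genes averaging 1 FPKM or more were called at 1 log2 unit from each AAV-ctrl library. No test was run with 1 AAV-IL27 library. Depth was estimated from FPKM steps over 10787 genes with 1 transcript. Only 71% to 72.2% of low values lay within 0.15 of a whole fragment, so fragment numbers are estimates, given with counting intervals for description, and no count test was run.

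The 10 genes and the lists were chosen with earlier results of these data known. Genes named are the 10 members, the pathway genes called, up to 4 of the most abundant genes of each other list and the 5 nearest to Hmox1. Outside this rule, Ly6g was named for the sample label and Adgre1 after its values were seen. Alternatives were other pseudocounts, filters, thresholds and scalings, and leaving out each AAV-ctrl library. Of the marker lists, 1 is not reported here. The scripts were tested on simulated data. Transcripts were aligned with BLAST 2.17.0, and calculations ran in Python 3.11.15 with scipy 1.17.1, pandas 2.3.3, numpy 2.4.6 and matplotlib 3.10.9.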

Additional observations from a re-analysis of the deposited data

How the results depend on the processing

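Hmox1, Blvra and Blvrb were called lower under every alternative run except the threshold of 2 log2 units, and 0 of the 10 genes were higher under any. The count of lower genes was 4 with pseudocounts of 0.1 and 0.01, which added Slc11a2 (beside 4.34% and 4.65% of all tested genes), and 3 to 4 when 1 AAV-ctrl library was left out (beside 2.66% without AAV-ctrl 2 and 3.22% without AAV-ctrl 1). A threshold of 0.5 log2 unit gave 5 genes, adding Slc11a2 and Trf (beside 7.01% of all tested genes), and a threshold of 2 gave 0 (beside 0.427%). The median difference of the 10 genes was -0.40 with the filter at 5 FPKM, which removes Slc11a2, -0.54 after rescaling to equal FPKM totals, -0.52 after rescaling by median ratios, and -0.60 to -0.56 without 1 AAV-ctrl library. The other pathway genes had a median of -0.15 with no filter, -0.12 with the filter at 5 FPKM, -0.15 after rescaling by median ratios, and -0.23 to -0.17 without 1 AAV-ctrl library. The alternatives for their count of lower genes were chosen after seeing the data. That count was 9 and 10 with pseudocounts of 0.1 and 0.01 (beside 4.34% and 4.65% of all tested genes). It was 6 under both rescalings (beside 2.09% for equal FPKM totals and 2.06% for median ratios). With the filter at 5 FPKM, which leaves fewer genes, it was 4 (beside 1.54%). Thresholds of 0.5 and 2 gave 11 and 2 (beside 7.01% and 0.427%). Without AAV-ctrl 1 the count was 8 (beside 3.22%), and without AAV-ctrl 2 it was 7 (beside 2.66%). Over all genes the lower calls went from 212 of 9130 (2.32%) to 396 and 425 with pseudocounts of 0.1 and 0.01. With the filter at 5 FPKM, 93 of the 6048 genes left were lower (1.54%). Of 60 alternative values of single members 1 changed sign, that of Slc11a1 without AAV-ctrl 2 (-0.02). No paired analysis was run because the labels do not pair any AAV-ctrl library with the AAV-IL27 library. Depth limits the values of Slc11a2 and Blvra most, and 1 AAV-IL27 library leaves the spread of that group unknown.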

Other observations

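The make-up of the haem oxygenase pair differed between the groups, a comparison chosen after the values were seen. Hmox1 made up 82.3% and 78.4% of the summed FPKM of Hmox1 and Hmox2 in AAV-ctrl 1 and AAV-ctrl 2, and 57.7% in AAV-IL27. The ratio of Hmox1 to Blvrb, also not planned, was 4.58 and 3.57 in AAV-ctrl and 4.33 in AAV-IL27. The AAV-IL27 value lay between those of AAV-ctrl. The ratio of Slc11a1 to Slc11a2 was 87.4 and 62.8 in AAV-ctrl and 438 in AAV-IL27, the last resting on an Slc11a2 level of 0.3 FPKM.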
